A study of Mus musculus with 192 samples.

Results

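Annexins and S100 proteins are small calcium-responsive proteins that often work in pairs. Annexins bind acidic phospholipids when calcium rises and take part in membrane repair, vesicle traffic and the anchoring of actin to membranes. S100 proteins are dimers with EF-hand calcium-binding loops, and several dock on the tails of annexins: S100a10 with Anxa2, which together bind plasminogen activators at the cell surface, and S100a11 with Anxa1. Fibroblasts are known to express many members of both families.

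The 10 genes described here are Anxa1, Anxa2, Anxa3, Anxa5, Anxa6, S100a4, S100a6, S100a10, S100a11 and S100a13, out of 18460 genes that the deposited RefSeq table names. They were chosen by gene name, and the group was picked because the main start of Anxa2 had been seen to differ in these same cells. Start positions and levels between the groups are therefore given as descriptions, with no test. Their 266 windows within 1000 bp of a RefSeq start are part of 553094 windows of 150 bp in the table.

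The study mapped transcription start sites in single mouse embryonic fibroblasts of strain C57BL/6, grown in serum-containing medium on plastic. All cells received interferon-beta at 100 U/ml for 1 h. The groups differ in that 96 cells were naïve and 96 had been pretreated; the labels do not say with what, for how long or how long before. No cells without interferon are among the samples, and no culture, plate or animal is named, so each group counts as 1 sample and group and handling cannot be told apart.

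After cells under 10% of the median depth were left out, 92 naïve cells held 305066 to 3857034 tags (median 2305628) and 85 pretreated cells held 502374 to 13174313 (median 2650490). The groups also differed in what their peak lists hold: all 92 naïve cells listed mitochondrial peaks (1287 in all) and 0 of the 85 pretreated cells did. What part this has in the differences given here was not tested. Of 11 fibroblast markers, 10 had windows, 5 reached 50 CPM (tags per 1000000 sense gene tags) in a group, and 0 of these differed by 2-fold. Their summed level ran from 356 to 4929 CPM in naïve cells (median 1827) and from 161 to 5784 in pretreated cells (median 2370). Vim was the highest of the 11, at 776 and 1427 CPM over the groups. Lum was at 0 tags, and Thy1 was listed in 1 naïve cell. Also under 50 CPM, Pdgfra (log2 ratio of pretreated over naïve -1.94), Dcn (-2.60) and Postn (-0.50) were lower in pretreated cells. Pdgfrb was higher (0.20). Pdgfra was listed in 10 naïve and 6 pretreated cells, and Dcn in 3 and 1. Of 6 blood cell markers, Ptprc, Adgre1 and Tyrobp were at 0, and together they reached 10.8 CPM in the naïve group and 2.21 CPM in the pretreated group. Of 4 endothelial markers, 3 were at 0 (0 and 3.62 CPM summed), and epithelial, skeletal muscle and nerve markers were at 0 tags.

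A peak marks where the 5′ ends of transcripts pile up, and its distance below is that of its window's centre from the RefSeq start, positive downstream. The centre of a 150 bp window falls between bases, and a peak can lie up to 2 bp from its window. A distance can therefore be off by 2 bp or slightly more. The main start of a group is the window with the most tags. All tags of a peak count at its window's distance, although some of them can start at other bases of its 150 bp. Shares of tags by window or range are therefore shares held by peaks centred there. Peaks of a cell were called at least 300 bp apart, so a cell as a rule lists 1 peak per promoter. Promoter sequences are shown for 3 genes: Anxa2 and S100a11, where most main starts differed by group, and Anxa1, where the groups shared 2 windows. They come from RefSeq (GRCm38.p6, while distances come from windows on mm9), read 5′ to 3′ on the gene's strand from 60 bases before to 20 after the start. Capitals cover the 2 windows that were main starts in Anxa1. In Anxa2 they join the window listed in more cells than any other in each group. In S100a11 they run from the furthest upstream of 3 leading pretreated windows to the naïve main start. Some cells had their main start outside the capitals. For Anxa1 (chr19:20390651-20390731, minus strand) these are bases -2 to -1, for Anxa2 (chr9:69453623-69453703, plus strand) -1 to 14, and for S100a11 (chr3:93520436-93520516, plus strand) -17 to -1, with 0 the first transcribed base. Whether the RefSeq start is the same base in both builds was not checked for Anxa1 and Anxa2.
Anxa1: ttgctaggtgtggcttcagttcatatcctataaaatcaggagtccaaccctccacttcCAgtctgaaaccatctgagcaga
Anxa2: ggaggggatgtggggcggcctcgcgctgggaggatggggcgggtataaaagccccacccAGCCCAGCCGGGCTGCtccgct
S100a11: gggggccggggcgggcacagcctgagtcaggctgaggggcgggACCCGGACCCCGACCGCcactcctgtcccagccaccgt

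Promoters were found for 7 of the 10 genes, and the motifs below were searched in 300 bases, 250 before the start and 50 from it on, which is more than is printed. A TATA box, searched as TATAAA on both strands like the others, lies in 13.6% of 32851 promoters of that length. In Anxa1 its first base is at -32, which is 31 bp before the main start of both groups. In Anxa2 it is at -17, which is 31 bp before the start used in pretreated cells and 16 bp before the -1 bp window, which more naïve cells (13) listed than any other. The S100a4 promoter has one at -31. The GC box GGGCGG, present in 35.7% of promoters, occurs at -190, -48 and -24 in Anxa2 and at -64, -52 and -24 in S100a11. The AP-1 motif TGANTCA, present in 7.81%, occurs at -95 in Anxa2 and at -136 and -38 in S100a11. The interferon-response letters (GAAA, any 2 bases, GAAA; 3.44% of promoters) and the STAT letters TTCNNNGAA (8.3%) were not in the 300 bases of the 7 genes. The letters CCAAT (37.4% of promoters) occur in S100a6, at -228 on the minus strand. The searched bases stop short of the main starts of S100a6 (+258 and +290 bp), S100a13 (+494 bp), S100a4 (+933 bp) and Anxa5 (+170 bp). For these genes the bases next to the main start were not searched. A match of letters is a description and not a bound site.

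Levels were compared first, over genes that reached 50 CPM in a group. Anxa2 and S100a6 were at least 2-fold higher in pretreated cells, 2 of 9 members, against 26.9% of 2638 genes. S100a11 was at least 2-fold lower, 1 of 9, against 10.9%. The other 6 lay between. The median log2 ratio (pretreated over naïve) was 0.45 over the 9 members and 0.41 over all 2638 genes. Median-of-ratios scaling, which lowers every log2 ratio by 0.41, turned the split over all genes from 26.9% higher and 10.9% lower to 15.2% and 16.1%, and left Anxa2, S100a6 and S100a11 past 2-fold.

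**Figure D1:**
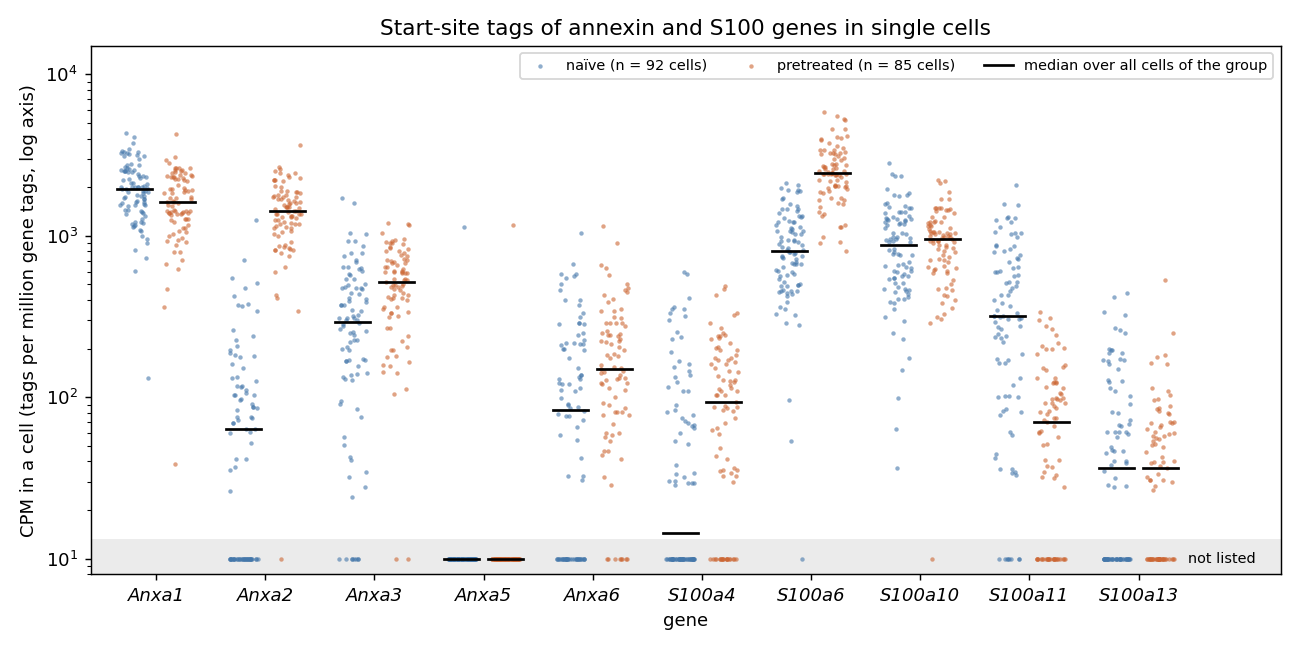
Level of each gene in each cell (points, log axis, in tags per 1000000 sense gene tags), naïve in blue (92 cells) and pretreated in orange (85 cells), with bars at the median over all cells; cells without a listed peak sit in the grey band. Pretreated cells lie higher for Anxa2 (medians 63.7 and 1421) and S100a6 (805 and 2441), and lower for S100a11 (318 and 69.96).

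Anxa2, the annexin that pairs with S100a10, gave 16479 tags over the naïve and 320711 over the pretreated group. A peak was listed in 55 of 92 naïve cells (59.8%) and in 84 of 85 pretreated cells (98.8%). Per cell the lowest, median and highest values were 0, 63.7 and 1259 CPM in naïve cells, and 0, 1421 and 3635 CPM in pretreated cells. The groups overlap little: 53 pretreated cells lay above the highest naïve cell, and 0 naïve cells lay above the pretreated median. The summed level was 106 CPM and 1467 CPM, a 13.9-fold difference (log2 3.80, interval 3.77 to 3.82 for counting error), at percentile 98.6 of all genes. Across the alternatives run the log2 ratio ran from 3.15 to 4.56. Thinning every cell to 833921 gene tags, which left out 16 naïve and 2 pretreated cells, gave listed shares of 59.2% and 98.8%. Such shares do not test depth, because the calling minimum scales with a cell's total.

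The starts of Anxa2 were scattered in naïve cells and held to 1 place in pretreated cells. Cells with a listed peak had a median of 110.5 and a lowest value of 26.1 CPM in the naïve group, against 1422 and 341.5 CPM. What part the low naïve level has in the scatter was not tested. In pretreated cells the window at +14 bp (chromosome 9, 69301430 to 69301579, mm9) was listed in 79 cells and held 95.3% of tags (95.2 to 95.4). The remaining 5 of the 84 cells had their main start in the window 1 base upstream, at +13 bp. In naïve cells the +14 bp window was listed in 3 cells with 3.66% of tags. The naïve window with the most tags, at +338 bp in intron 1, rests on 1 cell, whose 2302 tags are 13.97% of the group. By cells the leading naïve window was at -1 bp (69301415 to 69301564), listed in 13 cells with 12.7% of tags and in 0 pretreated cells. The next were +9 bp in 10 cells and +2 bp in 7 cells, and neither was listed in a pretreated cell.

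By range, peaks centred at -10 to 12 bp held 36.1% of naïve Anxa2 tags and 0 of the 320711 pretreated tags. The range 13 to 15 bp held 3.66% and 97.2%, and was the main start of 3 of 55 naïve and 84 of 84 pretreated cells. Intron 1, at 300 to 450 bp, held 34.9% of naïve tags in 14 cells and 2.49% of pretreated tags in 23 cells. Naïve cells had 21 distinct main starts and pretreated cells 2. Because of the single cell at +338 bp, the summed main start differs by -324 bp, while leaving out the highest cell of each group gives 15 bp and the median over cells differs by 5 bp. The GENCODE table also gives Anxa2 the windows that RefSeq names Mir3109, with 11185 naïve and 13932 pretreated tags, and 186 and 1659 CPM in all. Under that naming Anxa2 was listed in 77 naïve and 85 pretreated cells.

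S100a6, also called calcyclin, was listed in 91 naïve and 85 pretreated cells. Per cell it ran from 0 through a median of 805 to 2137 CPM in naïve cells, and from 810 through 2441 to 5818 CPM in pretreated cells. All 85 pretreated cells lay above the naïve median and 57 above the highest naïve cell. The summed level was 903 and 2581 CPM, 2.86-fold higher (log2 1.52, interval 1.51 to 1.52), with a range of 1.10 to 1.76 over the alternatives that gave a value.

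Its main start was at +258 bp in naïve cells (chromosome 3, 90417000 to 90417149) and at +290 bp in pretreated cells (90417032 to 90417181), both in the untranslated part of exon 1. The naïve window was listed in 46 cells with 47.05% of tags, and in 0 pretreated cells. The pretreated window was listed in 64 cells with 73.3% of tags, and in 1 naïve cell with 0.948%. A second pretreated window at +288 bp was listed in 20 cells with 15.1% of tags and in 0 naïve cells. The groups hardly shared a called main start. In 80 of 91 naïve and 1 of 85 pretreated cells the main start lay within 25 bp of the naïve one. It lay within 5 bp of the pretreated one in 1 naïve and 83 pretreated cells. The fraction of a main peak's tags near its main position had a median of 0.682 over naïve cells, so other tags start elsewhere. Whether the groups share starts within their peaks was not tested. A second region at 800 to 900 bp, over intron 1 and exon 2, held 6.24% of tags in 27 naïve and 8.46% in 66 pretreated cells.

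S100a11, the partner of Anxa1, differed the other way. It was listed in 84 naïve cells (91.3%) and 59 pretreated cells (69.4%). The lowest, median and highest cell were 0, 318 and 2052 CPM in the naïve group and 0, 69.96 and 339 CPM in the pretreated group. The groups overlap at low values: 75 naïve cells lay above the pretreated median, and 1 pretreated cell lay above the naïve median. The summed level was 473 and 82.8 CPM, 5.71-fold lower (log2 -2.51, interval -2.54 to -2.49), with -2.92 to -2.43 over the alternatives. Thinned cells gave listed shares of 89.5% and 69.9%, which do not test depth either.

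The naïve main start of S100a11 was at -1 bp (chromosome 3, 93324343 to 93324492), listed in 65 cells with 80.02% of tags and in 0 pretreated cells. In pretreated cells 3 windows shared the lead: -11 bp in 16 cells with 29.9% of tags, -9 bp in 15 cells with 25.1%, and -17 bp in 15 cells with 24.9%. Peaks centred at -3 to 1 bp took 87.4% of the naïve tags and 0 of 18106 pretreated tags. For -20 to -8 bp the shares were 5.67% and 79.98%. The transcript shares 46.99% of its 31-base stretches with the processed pseudogene Gm12854, but 0 of those in its first 100 bases are shared with another gene.

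**Figure D2:**
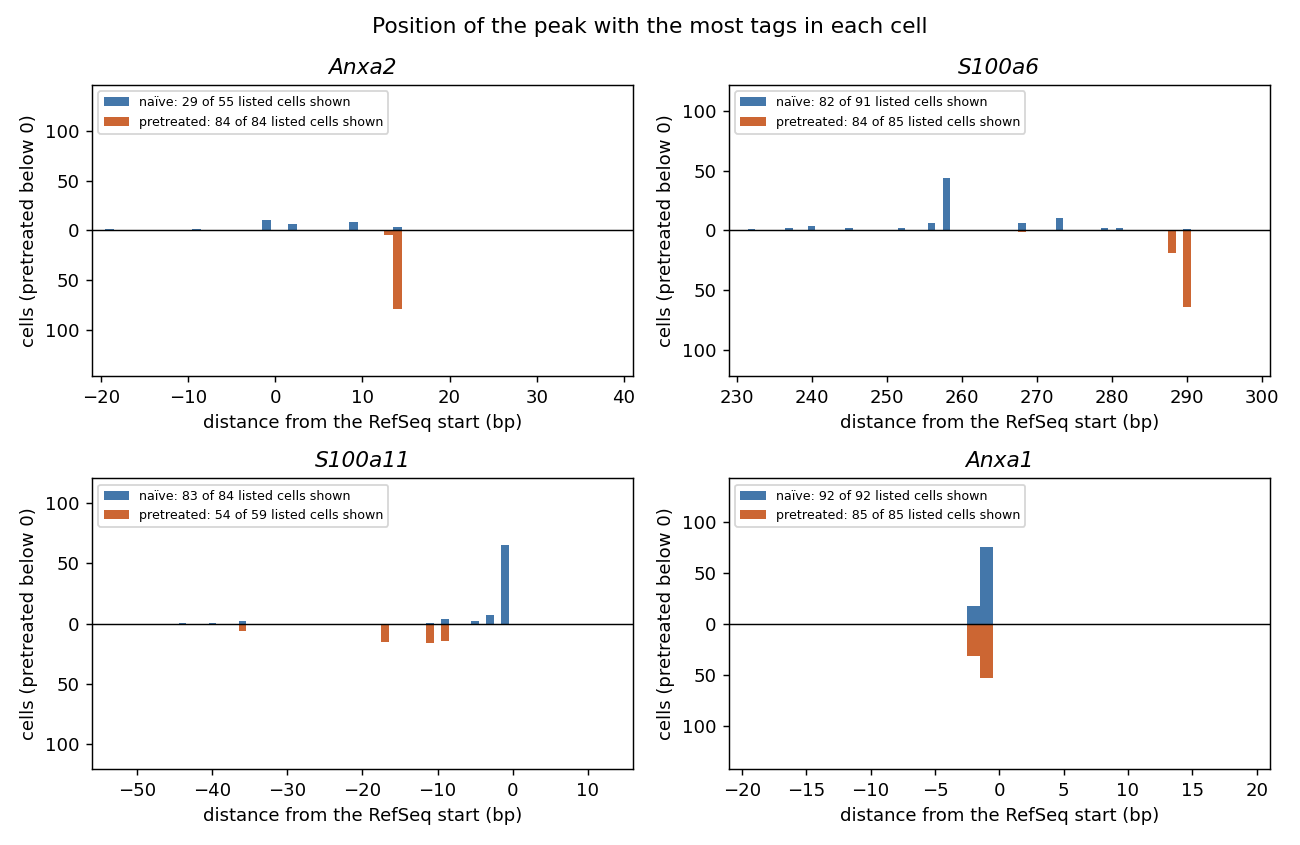
Number of cells (vertical axis, naïve upward in blue and pretreated downward in orange) by the distance of their main peak from the RefSeq start in bp, for Anxa2, S100a6, S100a11 and Anxa1. Pretreated cells gather at +14 bp for Anxa2 (79 cells) and at +290 bp for S100a6 (64 cells), while Anxa1 cells of both groups sit at -2 and -1 bp.

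Over all members, the main start was at least 10 bp apart in 4 of 9 (Anxa2, Anxa6, S100a6 and S100a11), and in 42.9% of the 4013 genes with at least 100 tags and 10 cells in each group. That share is near the background, so it is no result about these genes. Of the 4, Anxa6 and S100a6 were further downstream in pretreated cells (19% of all genes) and Anxa2 and S100a11 further upstream (23.8%). Anxa2 counts as upstream through 1 naïve cell at +338 bp. With the highest cell left out it was 15 bp downstream, and by the median over cells 5 bp downstream. The same window led in both groups for 5 of 9 members and 34.8% of genes. For S100a4, which is among the 5, this depends on the limit of 1000 bp, since windows at any distance gave a shift of -713 bp. For S100a6 and S100a11 the main window of a group was listed in 0 cells of the other, 2 of 9 members against 24.5% of genes. By the median over cells, S100a6 and S100a11 stayed at least 10 bp apart, 2 of 9 against 27.8%. By both measures S100a11 lay at the cutoff, at -10 bp. Its main-start shift became -8 bp with exact window matches and with the highest cell of each group left out.

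**Figure D3:**
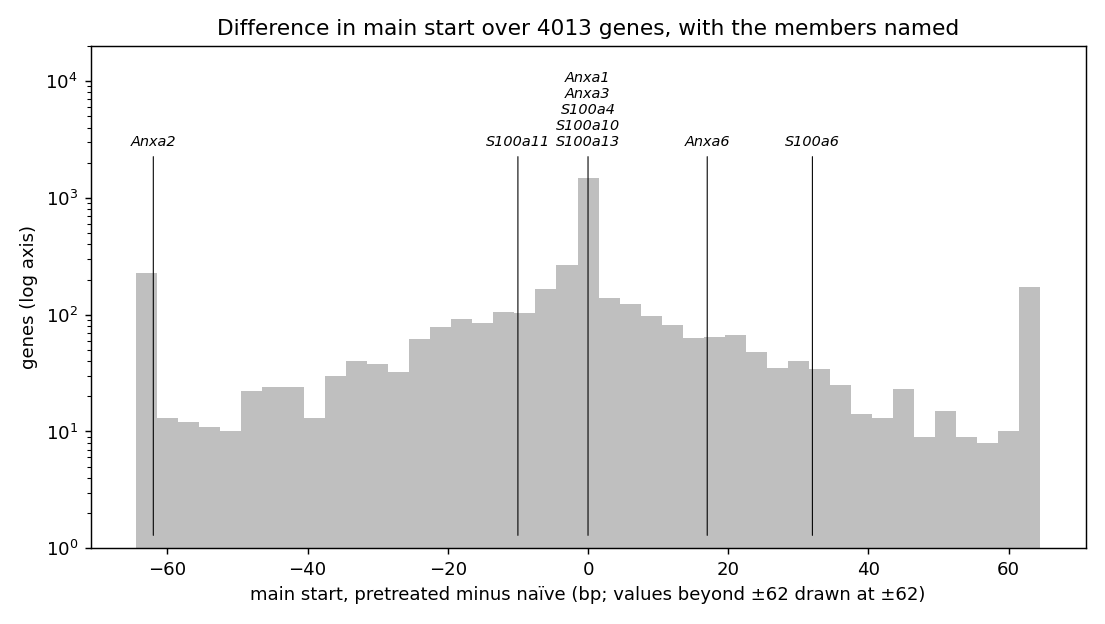
Difference in main start, pretreated minus naïve (horizontal axis, bp), over 4013 genes (grey bars, log axis), with lines at the 9 members; values beyond 62 bp are drawn at the edge. S100a6 (32 bp) and Anxa6 (17 bp) lie to the right of 0, S100a11 (-10 bp) and Anxa2 (-324 bp, from 1 naïve cell) to the left.

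Anxa6, an annexin of cholesterol-rich membranes, showed a wide promoter in both groups. It was listed in 58 naïve and 77 pretreated cells, with a lowest, median and highest cell of 0, 83.7 and 1040 CPM and of 0, 149 and 1151 CPM. Summed over cells this gave 128 and 188 CPM (log2 0.56). Within 1000 bp of the start all tags were in peaks centred at 0 to 80 bp, over 16 distinct main starts per group. These were led by +25 bp in naïve cells (14 cells, 21.9%) and +42 bp in pretreated cells (7 cells, 14.03%). These leading windows differ by 17 bp, whereas the medians over cells are 41 and 42 bp. Sense tags beyond 1000 bp made up 24.04% of its naïve tags, in 29 cells, and 11.2% of its pretreated tags, in 26 cells.

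Anxa1, a glucocorticoid-induced ligand of formyl peptide receptors, had 2 distinct main starts in each group. It was listed in all 92 naïve and all 85 pretreated cells. The lowest, median and highest cell were 132, 1954 and 4325 CPM and 38.6, 1612 and 4286 CPM, so the groups overlap over nearly their whole range. The summed level was 2121 and 1665 CPM (log2 -0.35). The window at -1 bp (chromosome 19, 20465088 to 20465237) led both groups, in 75 naïve cells with 84.8% of tags (84.7 to 84.9) and in 53 pretreated cells with 64.5% (64.4 to 64.7). The window at -2 bp took 14.7% in 17 cells and 35.3% in 32 cells. The upstream window took a larger share in pretreated cells, with no replicate to set it against. Each cell listed only 1 of these 2 windows, so the intervals over tags do not cover the spread between cells. The windows are 1 base apart, which is within the resolution of a distance.

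S100a10, which pairs with Anxa2 and does not itself bind calcium, was close to level between groups. Per cell it ran from 36.6 through 873 to 2827 CPM in naïve cells and from 0 through 959 to 2214 CPM in pretreated cells. The summed level was 981 and 946 CPM, and the log2 ratio of -0.05 turned positive, 0.017 to 0.092, under 4 alternatives. The window at +46 bp led both groups, in 55 naïve cells with 63.9% and 46 pretreated cells with 57.6% of tags. A window 4 bp downstream, at +50 bp, was listed in 1 naïve and 13 pretreated cells and went from 0.694% to 14.2% of tags.

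Anxa3, an annexin of phagocytes and other cells, was listed in 84 naïve and 83 pretreated cells. Per cell it ran from 0 through 293 to 1716 CPM and from 0 through 518 to 1204 CPM. In sum it reached 399 and 543 CPM (log2 0.45). The window at +75 bp led both groups but was used unevenly, in 10 naïve cells with 13.8% and 23 pretreated cells with 39.6% of tags. Peaks centred at 60 to 110 bp held 56.6% and 79.7%, and those at 0 to 59 bp held 33.04% and 15.3%. Naïve cells had 26 distinct main starts and pretreated cells 19.

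S100a4, known as fibroblast-specific protein, was listed in 46 naïve and 65 pretreated cells. Per cell it ran from 0 through 14.4 to 598 CPM and from 0 through 93.9 to 490 CPM. The sums were 85.1 and 118 CPM (log2 0.47, with 0.055 to 1.83 over the alternatives). A window at +933 bp, in intron 1, led both groups with 33.2% and 15.3% of tags. At the annotated promoter, -3 bp was listed in 0 naïve and 27 pretreated cells, with 14.5% of pretreated tags, 28 bp after the first base of the TATA box. The promoter range -100 to 20 bp held 13.04% of tags in 16 naïve cells and 33.5% in 46 pretreated cells.

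These S100a4 values cover a small part of its tags. Sense tags further than 1000 bp from the start made up 82.9% in naïve and 80.8% in pretreated cells. The transcript shares 58.12% of its 31-base stretches with Gm42674, so reads of these genes cannot be separated with certainty. The main start also depends on the settings. It moved to -3 bp in pretreated cells with cells counted equally, the highest cell left out or exact window matches, a shift of -936 bp. With windows at any distance it was at +2028 bp in naïve and +1315 bp in pretreated cells, a shift of -713 bp. With GENCODE it was at +887 and +174 bp from the GENCODE start, also a shift of -713 bp.

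S100a13, which takes part in the export of a fibroblast growth factor, was listed in 51 naïve and 51 pretreated cells. Per cell it ran from 0 through 36.5 to 442 CPM and from 0 through 36.5 to 528 CPM. Over all cells it was at 72.3 and 53.3 CPM (log2 -0.44). The window at +494 bp led both groups, in 28 cells with 48.7% and 13 cells with 36.5% of tags. It is annotated to the promoter of S100a1, which lies on the opposite strand. The range 400 to 560 bp held 99.1% and 96.1% of tags. Under the GENCODE names S100a13 has 0 tags in both groups, so all of these values rest on the RefSeq naming.

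Anxa5, the phosphatidylserine binder used to stain dying cells, is nearly absent under the RefSeq names. It has 1 window at +170 bp, listed in 1 cell of each group with 2765 and 2270 tags, and did not reach 50 CPM. RefSeq gives the neighbouring windows to Mir7009, with 158284 and 270111 tags. Under the GENCODE names Anxa5 was listed in all 92 and all 85 cells, at 1085 and 1350 CPM (log2 0.32). Its leading window (chromosome 3, 36374514 to 36374663) was listed in 61 naïve cells with 69.2% and 47 pretreated cells with 62.6% of tags. The RefSeq value of Anxa5 therefore leaves out nearly all tags that GENCODE gives to it.

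The share of cells with a listed peak was at least 20 percentage points higher in pretreated cells for Anxa2, Anxa6 and S100a4, 3 of 9 members against 47.6% of genes. It was at least 20 points lower for S100a11, 1 of 9 against 3.64%. Under the GENCODE names Anxa2 was listed in 77 of 92 naïve and 85 of 85 pretreated cells, and S100a4 in 90 and 85. For Anxa2 and S100a4 a difference of 20 points thus depends on the naming. Anxa6 (58 and 77 cells) and S100a11 (84 and 59 cells) kept their RefSeq counts. Thinning left Anxa6 at 63.2% and 90.4% and S100a4 at 51.3% and 78.3%. The calling minimum scales with a cell's total, so thinned shares do not test depth.

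HOMER's focus ratio is the share of a peak's tags near its main position, and a value of 1 means that all start there. It was higher in pretreated cells for Anxa2 (median over cells 0.937 in naïve and 1 in pretreated cells) and S100a6 (0.682 and 0.999). In Anxa2 it ran from 0.452 to 0.998 in naïve cells and from 0.931 to 1 in pretreated cells. The other 7 members with enough tags had lower medians in pretreated cells, among them S100a10 (0.998 and 0.865), S100a11 (0.997 and 0.938) and Anxa3 (0.786 and 0.651). Over all sense peaks the median was 0.972 and 0.943, so the medians of Anxa2 and S100a6 differed in the opposite direction. The share of all genes with a higher or lower median is not given here, so the split of the members is only a description.

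**Figure D4:**
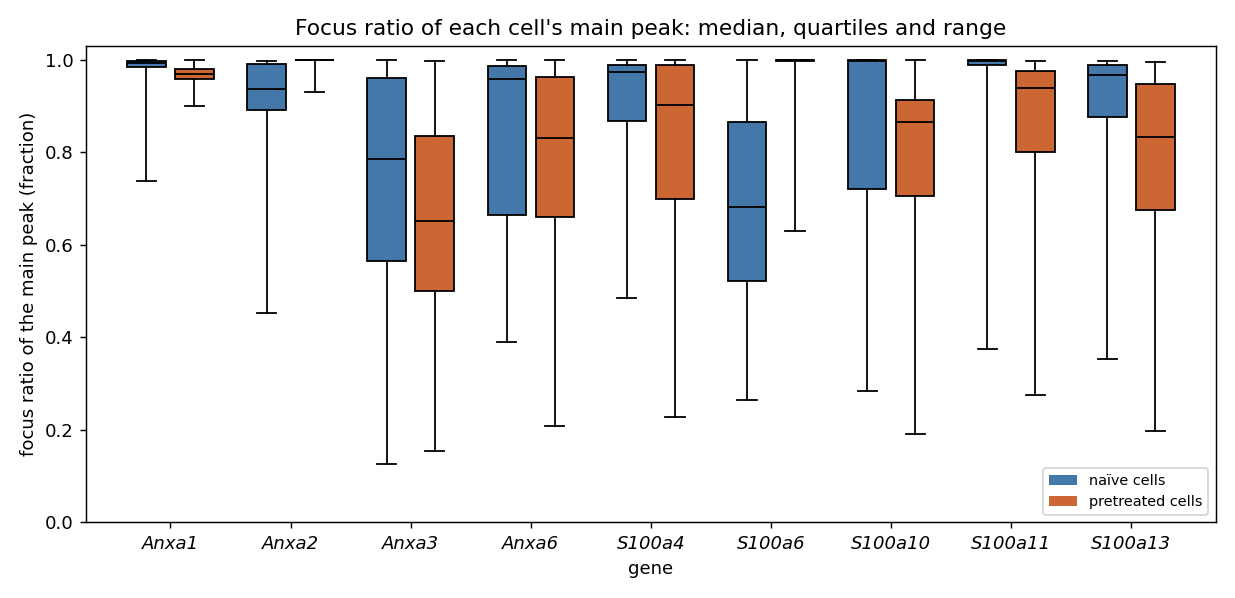
Focus ratio of each cell's main peak (fraction, vertical axis) for 9 genes in naïve (blue) and pretreated (orange) cells; boxes give median and quartiles, whiskers the range. Boxes of Anxa2 and S100a6 close up near 1 in pretreated cells, and those of the other 7 genes lie lower than in naïve cells.

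Levels were also compared across the cells of each group. Of 1301 genes with a peak in 50% or more of each group's cells, S100a10 had the highest mean Spearman rho with Anxa2 over both groups, 0.06 in 92 naïve cells and 0.55 in 85 pretreated cells. Next came Nptn (0.24 and 0.34), Rplp2 (0.08 and 0.49), Ugdh (0.31 and 0.23) and Snrpe (0.22 and 0.31). Anxa1 and S100a10 had 0.05 and 0.50. Over the 36 pairs of 9 members the median was 0.06 in naïve cells (-0.24 to 0.27) and 0.20 in pretreated cells (-0.07 to 0.55). Over all pairs of 1302 genes it was 0.04 in each group, with 5th and 95th percentiles of -0.16 and 0.25 in pretreated cells. All values of a cell share its library and its total, and Anxa2 was listed in 55 of the 92 naïve cells, so these are descriptions.

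**Figure D5:**
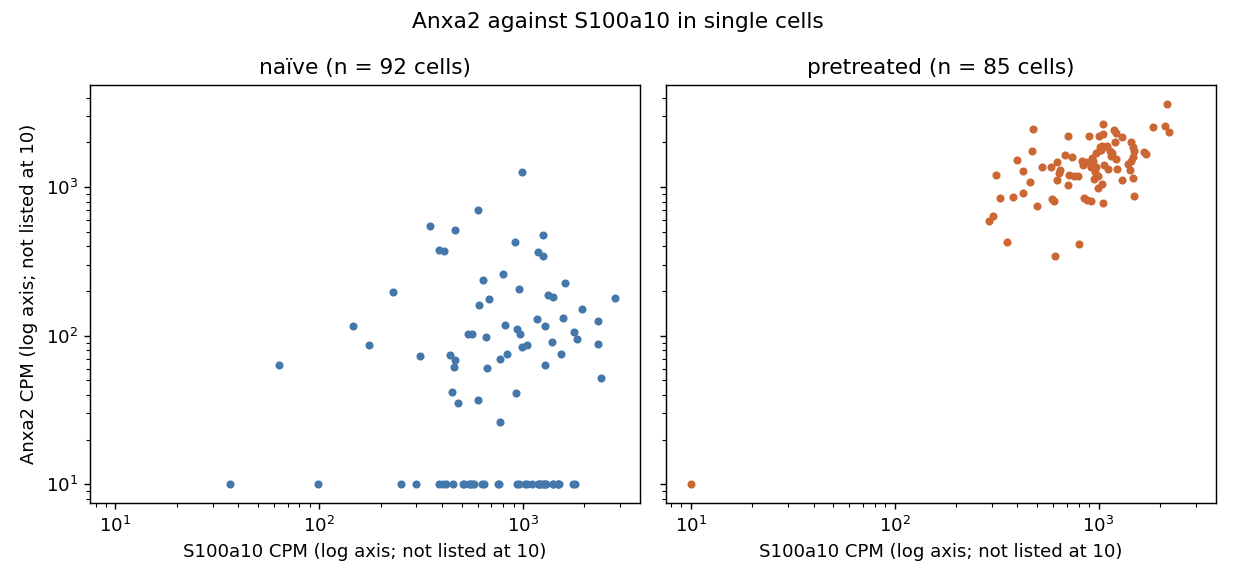
Anxa2 against S100a10 in each cell (CPM, log axes; unlisted cells drawn at 10), for 92 naïve and 85 pretreated cells. Naïve cells scatter (rho 0.06), and pretreated cells spread along a rising band (rho 0.55).

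Of 18 other annexin and S100 genes, 9 had windows and 4 reached 50 CPM. Anxa7, known for binding sorcin, was at least 2-fold higher, at 15.02 and 58.7 CPM (log2 1.97), listed in 14 naïve and 52 pretreated cells. Anxa4 (342 and 590 CPM, log2 0.79), Anxa8 (66.2 and 81.9 CPM, log2 0.31) and S100a1 (130 and 126 CPM, log2 -0.04) lay between, and 0 were 2-fold lower. Over all genes 26.9% were higher and 10.9% lower, so 1 of 4 is near the background. Their median log2 ratio was 0.55.

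Of 19 partner genes (membrane repair, calmodulin, tetraspanin and plasminogen activator genes), 13 reached 50 CPM. Cd44, the hyaluronan receptor, was at least 2-fold higher, at 44.3 and 109 CPM (log2 1.30). The tetraspanin Cd9 was at least 2-fold lower, at 1297 and 641 CPM (log2 -1.02). These are 1 of 13 each way, against 26.9% of all genes higher and 10.9% lower. The other 11 lay between, among them Ahnak, Myof, Capn2, Pdcd6, Sri, Calm2, Calm3, Cd63, Plat and Plau. Ahnak, a scaffold of Anxa2 and S100a10, was at 260 and 178 CPM (log2 -0.54), and Cd63 was at 2728 and 3781 CPM (log2 0.47). The median log2 ratio of the 13 was 0.47. The main start was at least 10 bp apart in 1 of 5 family genes and 3 of 15 partner genes with enough tags, against 42.9% of all genes.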

How the data were processed

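Each of the 192 cells had 1 deposited peak list. Per the file headers, the authors ran HOMER findPeaks (tss style) cell by cell, with strands kept apart and peaks 150 bp wide, at least 300 bp apart and with at least 200 tags per 10000000. The deposited signal is a peak's number of tags per 10000000 in its cell, and the deposited focus ratio is a fraction, HOMER's share of the tags near the main position. Per the submitters' processing notes, Bowtie2 and HOMER were used with build mm9; read filters are not given in the sources used here. Tags were recovered as signal times header total divided by 10000000. All 1082504 peaks came out whole (within 0.1 tag or the rounding of the deposited value) and sum to the 426263116 tags the headers give. A tag is a read, not a molecule, so intervals cover counting error only.

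Peaks were given to the nearest of 553094 windows, at most 2 bp away, and counted for the gene of the deposited RefSeq table if on its strand (known for 18310 of 18460 symbols, from GENCODE vM21 or RefSeq). Cells under 10% of the median total (230562.75 tags) were left out. CPM is tags per 1000000 sense gene tags. Ratios on the log2 scale divide the pretreated by the naïve group after adding 0.5 tag to both sums. Intervals are exact (Clopper-Pearson) at 95%. The labels name no culture, so each group is 1 sample, no test was run, and differences have no replicate check. A pair of deposited matrices with 192 unnamed columns of per-cell values each (384 columns) was not used here.

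All members are named. Other family and partner genes are named from 50 CPM (1 item is not reported here), and the 5 genes most like Anxa2 by mean within-group Spearman rho. Members and lists were chosen with earlier results of these data known, and the position ranges after seeing the starts. The functions were tested on simulated data. Python 3.11.15, pandas 2.3.3 and scipy 1.17.1 were used.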

Additional observations from a re-analysis of the deposited data

Results flagged for a closer look

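Peaks on the strand opposite to the member genes entered none of the values above. Within 1000 bp of the members' starts they held 1656 tags in 12 naïve cells and 1496 tags in 13 pretreated cells. That is 0.201% of the naïve and 0.0893% of the pretreated tags in these windows on both strands, against 3.54% and 3.45% over all genes. They were listed because they lie outside the main measurement and no control group was profiled. Anxa1 held the largest number of the 10 genes, with 834 naïve and 743 pretreated tags, each in 8 cells.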

How the results depend on the processing

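Of 9 members, 2 were at least 2-fold higher and 1 lower, and the counts were the same under each alternative run but 1: windows within 100 bp compared 6 members and left 1 higher, because those of S100a6 lie beyond. With GENCODE the 9 include Anxa5 in place of S100a13. The number with a shifted main start, 4, was 5 with windows at any distance (64.22% of all genes) and 5 with GENCODE (41.77%). It was 6 with cells weighted equally (35.61%) and 0 when windows within 50 bp were chained into 1 region (3.588%). With exact window matches (44.26%) or the highest cell left out (40.1%) it stayed at 4, but S100a4 took the place of S100a11. The shift of S100a11 was then -8 bp. The share of naïve Anxa2 tags in the main naïve window, 13.97% at +338 bp, was 21.04% at -1 bp with windows within 100 bp, 19.8% at -1 bp with cells weighted equally, 14.8% at -1 bp with the highest cell left out, 16.5% at +2 bp with exact window matches, 60.6% with windows chained, and 8.82% at -296 bp from the GENCODE start. The Anxa2 shift of -324 bp became 15 bp under the first 3 of these, 12 bp with exact matches and 277 bp with GENCODE. The Anxa6 shift of 17 bp became -13 bp with GENCODE. The S100a10 log2 ratio of -0.05 was 0.017 with windows at any distance, 0.092 with GENCODE, 0.031 with exact matches and 0.031 with equal weights. That of Anxa5, -0.77, was 0.32 with GENCODE and 0.16 with equal weights. The cause of these changes was not tested, beyond what each alternative leaves out. Median-of-ratios scaling lowered every log2 ratio by 0.41 and moved the split over all genes from 26.9% higher and 10.9% lower to 15.2% and 16.1%. Of 94 recomputed log2 ratios and 78 shifts of single genes, 30 and 60 stayed within counting error or 2 bp, 58 and 12 moved without a change of sign, and 6 and 6 changed sign. No paired analysis was possible because numbers merely label cells and nothing was tested. A gene without a listed peak in a cell may lie below the calling minimum.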
